A study of Mus musculus with 12 samples.

Results

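The comparison described here is that of mandibular lymph nodes from miR-451a knockout mice (miR-451a KO) 24 h after an ear challenge with the hapten 1-fluoro-2,4-dinitrobenzene (DNFB) against nodes from knockout mice that had been sensitized only. It rests on 6 of the 12 RNA-seq libraries of the series, named by their labels: KO_DTH, 3 libraries taken on day 10, and KO_se, 3 libraries taken on day 9. All genes entered it, and 20034 of the 56941 gene IDs in the table had enough counts to be tested. All mice had been painted with 100 µl of 0.5% DNFB on the shaved abdomen on days 0, 1 and 2, and the KO_DTH mice also received 20 µl of 1% DNFB on the left ear on day 9. The wild-type groups of the same design, WT_DTH on day 10 and WT_se on day 9 with 3 libraries each, served to estimate the spread and to test whether an effect differed between the genotypes. The challenged nodes were thus taken 1 day later than the sensitized ones, so challenge and day of harvest cannot be told apart, and no unchallenged day 10 node is part of the design. The labels name no promoter or cell type that would restrict the knockout, and they give neither the strain, age or sex of the mice nor the side of the node. They also do not say whether 1 library is 1 mouse, so the p-values measure only the spread between these libraries.

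Delayed-type hypersensitivity to DNFB is a T cell response to a small molecule that binds skin proteins. Sensitization primes hapten-specific T cells in draining nodes, and a later challenge on the ear brings cytokines, monocytes and activated dendritic cells to the ear and to the nodes that drain it, the mandibular nodes among them. Interferons are central to such responses: they bind cell surface receptors, activate transcription factors that include STAT2 and IRF9, and so switch on antiviral genes, GTPases that attack microbes inside cells, antigen presentation and chemokines. miR-451a is a small regulatory RNA made mainly in cells of the red blood cell lineage. The deposited values of the Mir451a gene itself were not analysed here, so the genotype of the libraries was not checked from the counts.

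Counts per library summed to between 36946696 and 50057998 in KO_DTH and between 44397722 and 58405576 in KO_se. Levels below are CPM, counts scaled to the size of each library with TMM factors, so they compare 1 gene across libraries and not different genes. The first principal component of the 6 libraries carried 34.1% of the variance and separated the groups. Median levels of 28 of the 46 gene lists did not overlap between the groups, while 30.1% of all tested genes taken singly did not. A median over many genes varies less between libraries than a single gene, so this share is no baseline for the lists. These lists can share members, some of their shifts were small, and the interferon ligand list had only 1 tested gene. T and B cell genes marked every library as lymph node: Cd3e, a T cell receptor subunit, had 137, 125 and 129 CPM in KO_DTH, against 125, 139 and 154 CPM in KO_se, and Cd79a, a B cell receptor subunit, had 517, 658 and 649 CPM in KO_DTH, against 655, 729 and 481 CPM in KO_se. Glycam1 of the high endothelial venules ranged from 2.43 to 58.6 CPM in KO_DTH and from 2.77 to 82.6 CPM in KO_se. All 6 libraries also carried salivary gland RNA, which took 7.24 ± 2.79% of counts in KO_DTH and 4.14 ± 1.87% in KO_se (SD, n = 3 each, exact permutation p = 0.2, where 0.1 is the smallest possible). Mitochondrially encoded genes took 10.5 ± 5.10% in KO_DTH and 13.6 ± 2.09% in KO_se (exact permutation p = 0.4), and erythroid genes 0.298 ± 0.173% in KO_DTH and 0.875 ± 0.626% in KO_se (exact permutation p = 0.2). Xist, expressed from the inactive X chromosome of females, exceeded Y-linked Ddx3y in 2 of 3 KO_DTH libraries and in 1 of 3 KO_se libraries. The part that gland, mitochondrial or erythroid RNA and sex had in the results was not tested beyond the alternative fits named beside them.

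Of the 20034 genes, 1938 (9.67%) differed between challenged and sensitized knockout nodes at an adjusted p under 0.05 (edgeR's quasi-likelihood test, Benjamini-Hochberg over all genes, two-sided). In KO_DTH 1164 genes (5.81%) were higher and 774 (3.86%) were lower than in KO_se. More rises than falls were large, with 387 of the higher genes and 139 of the lower ones past 2-fold, while the median log2 fold change of all genes tested was close to 0, at -0.0019. Every list below is read against these shares of all genes. In bulk RNA, more cells of a type and more RNA per cell cannot be told apart. Adding 2 principal components of the salivary genes as terms of the fit gave 445 calls, 382 of them higher and 63 lower, and leaving out the most salivary library of each group gave 742. Leaving out 1 library moved the count by over 1.5 times in 4 cases, to 1039 without KO_DTH replicate 1, 1243 without KO_DTH replicate 2, 1056 without KO_se replicate 2 and 1218 without KO_se replicate 3. Known interferon-induced genes stood among the 12 of smallest p. Parp12, an antiviral PARP enzyme, had 41.5, 41.0 and 30.4 CPM in KO_DTH, against 7.38, 5.16 and 7.20 CPM in KO_se (log2 fold change 2.51 ± 0.16 (SE), adjusted p = 7.5e-06). Trafd1, a brake on innate signalling, had 193, 206 and 152 CPM in KO_DTH, against 59.9, 50.5 and 52.8 CPM in KO_se (log2 fold change 1.75 ± 0.14 (SE), adjusted p = 3.29e-05). In both genes the lowest challenged library lay far above the highest sensitized one. Msr1, a scavenger receptor of macrophages, was at 25.7, 19.4 and 17.7 CPM in KO_DTH, against 2.27, 2.5 and 1.86 CPM in KO_se, again without overlap (log2 fold change 3.24 ± 0.26 (SE), adjusted p = 3.29e-05).

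**Figure D1:**
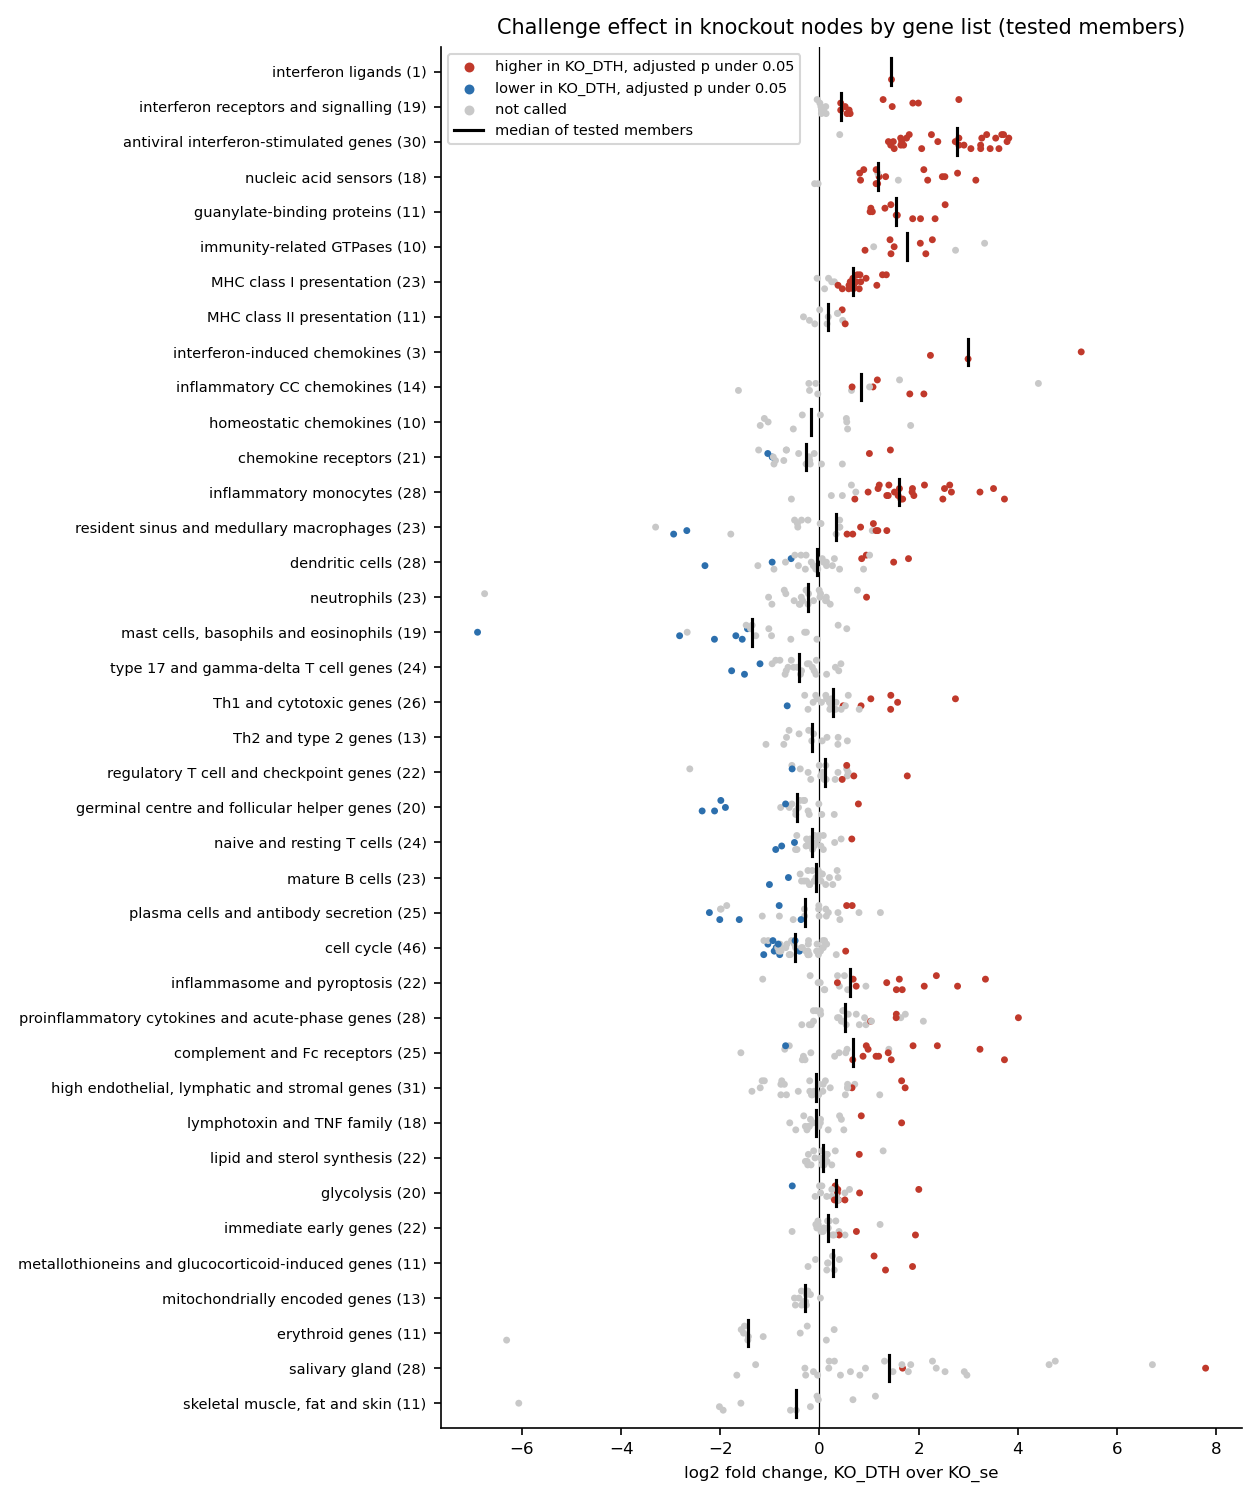
Log2 fold change of each tested member of 39 gene lists, KO_DTH over KO_se, 1 point per gene. Red points are higher and blue points lower in KO_DTH at an adjusted p under 0.05, grey points did not pass, the black bar is the list's median, and the number of tested members stands in brackets. Antiviral, guanylate-binding and monocyte lists lie almost wholly to the right, and most genes of mast cells, basophils and eosinophils to the left.

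Interferons themselves were scarcely detected. Of 11 type I, II and III interferon genes looked up, 8 had no count in any of the 6 knockout libraries and only Ifng, the type II interferon made by T and NK cells, had enough counts to be tested. Ifng had 4.30, 5.93 and 4.19 CPM in KO_DTH, against 2.13, 1.4 and 1.80 CPM in KO_se. The 3 challenged libraries were all above the 3 sensitized ones (log2 fold change 1.44 ± 0.32 (SE), adjusted p = 0.0148). The interferon receptor subunits did not pass: Ifnar1, Ifnar2, Ifngr1 and Ifngr2 had log2 fold changes of 0.04, 0.04, 0.03 and 0.01, and the kinase Jak1, which they share, had -0.05. Of 19 genes of interferon receptors and signalling 11 rose, against 5.81% of all genes, none fell, and the list's median was 0.43 against -0.0019 over all genes. Signalling gene rises numbered 6 with the 2 salivary terms. Ifng lost the call with the 2 salivary terms, without the most salivary library of each group and without KO_se replicate 2 or KO_DTH replicate 2 (adjusted p up to 0.0706).

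Among the transcription factors of the pathway, members of the complex that binds interferon response elements rose. Irf9, which gives that complex its DNA contact, had 145, 146 and 132 CPM in KO_DTH, against 69.5, 52.1 and 52.1 CPM in KO_se (log2 fold change 1.28 ± 0.13 (SE), adjusted p = 7.9e-05). Stat2 rose by 1.99 log2 units (adjusted p = 2.78e-05). Irf7, the factor that amplifies type I interferon, had 446, 456 and 284 CPM in KO_DTH, against 77.7, 47.1 and 44.4 CPM in KO_se. No challenged value came near a sensitized one (log2 fold change 2.81 ± 0.30 (SE), adjusted p = 9.5e-05). Irf1 and Irf8, both induced by IFN-γ, rose by 0.56 log2 units (adjusted p = 0.00751) and 0.62 log2 units (adjusted p = 0.0041), whereas Irf3, which is activated by phosphorylation, had a log2 fold change of 0.13 (adjusted p = 0.321). Feedback inhibitors rose as well: Usp18, which blocks signalling at the type I receptor, had 24.9, 27.6 and 16.3 CPM in KO_DTH, against 7.72, 4.78 and 6.13 CPM in KO_se (log2 fold change 1.88 ± 0.29 (SE), adjusted p = 0.00146), and Socs3 and Socs1, which restrain JAK kinases, rose by 0.52 log2 units (adjusted p = 0.000526) and 0.60 log2 units (adjusted p = 0.0121). Socs1, Socs3 and Usp18 lost the call with the 2 salivary terms, and Socs1 without the most salivary library of each group.

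Antiviral interferon-stimulated genes responded together, with 29 of 30 higher in KO_DTH (5.81% of all genes were), none lower, a median log2 fold change of 2.77, and levels that did not overlap between the groups for any of the 30, as in 30.1% of all tested genes. Summed over the list, they reached 2539.9 to 3679.7 CPM in KO_DTH, against 715 to 951 CPM in KO_se. Ifitm3, which stops viruses from fusing with host membranes, had 149, 139.8 and 101 CPM in KO_DTH, against 22.6, 17.7 and 15.2 CPM in KO_se. The lowest challenged library lay far above the highest sensitized one (log2 fold change 2.81 ± 0.18 (SE), adjusted p = 7.5e-06). Oas1g, of the family of RNA sensors that make oligoadenylates, had 17.9, 20.9 and 11.5 CPM in KO_DTH, against 1.59, 0.882 and 1.15 CPM in KO_se (log2 fold change 3.78 ± 0.31 (SE), adjusted p = 3.29e-05), and its close relative Oas1a had 65.4, 73.5 and 49.8 CPM in KO_DTH, against 10.2, 5.55 and 6.92 CPM in KO_se (log2 fold change 3.05 ± 0.28 (SE), adjusted p = 5.14e-05). The pair are near-identical neighbours, so reads may have been split between them and each value is uncertain. Larger family members went the same way: Oas2 had 104, 127 and 82.6 CPM in KO_DTH, against 11.5, 4.80 and 5.88 CPM in KO_se (log2 fold change 3.82 ± 0.42 (SE), adjusted p = 0.00013) and Oas3 rose by 3.37 log2 units (adjusted p = 7.9e-05). The only member not called was Samd9l, an inhibitor of translation, at 0.41 log2 units (adjusted p = 0.093).

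The other antiviral members differed in level but not in direction. Isg15, a ubiquitin-like modifier that is also secreted, had 90.8, 86.3 and 52.8 CPM in KO_DTH, against 11.3, 4.24 and 5.49 CPM in KO_se (log2 fold change 3.44 ± 0.38 (SE), adjusted p = 0.000131). Ifit1, which captures viral RNA, had 58.9, 74.7 and 48.1 CPM in KO_DTH, against 12.1, 5.62 and 6.28 CPM in KO_se (log2 fold change 2.91 ± 0.44 (SE), adjusted p = 0.00121). KO_se replicate 1 was the highest of the sensitized libraries for both, yet stayed below each challenged library. Rsad2, the radical SAM enzyme viperin, rose by 3.68 log2 units (adjusted p = 0.000131), Mx1 and Mx2, GTPases that trap viral particles, by 2.39 log2 units (adjusted p = 0.00026) and 3.27 log2 units (adjusted p = 0.00132), Ifit3 by 3.55 log2 units (adjusted p = 0.00288), and Bst2, the tether that keeps budding virions on the cell, by 1.81 log2 units (adjusted p = 0.000122). KO_DTH replicate 3 had the lowest challenged value of Ifitm3, Oas1g, Oas2, Isg15, Ifit1 and Rsad2, and it was also the library with the least salivary and mitochondrial RNA of its group, at 4.03% and 5.57% of counts.

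Promoters of this group were searched for the core of the interferon-stimulated response element, the DNA motif that the complex containing STAT2 and IRF9 binds, because these genes moved together. The core was spelled GAAANNGAAA, searched on both strands, with overlapping matches counted, in RefSeq windows of the GRCm38.p6 assembly that run 250 bases upstream to 50 bases downstream of a gene's start. The 6 members called higher in the antiviral, chemokine and guanylate-binding lists that hold it and have the smallest p are printed 5′ to 3′ in the direction of transcription, with each match in capitals: Ifitm3 at chr7:141010695-141010994 (- strand), Gbp2 at chr3:142620413-142620712 (+ strand), Oas1g at chr5:120887564-120887863 (- strand), Gbp7 at chr3:142530086-142530385 (+ strand), Cxcl10 at chr5:92348840-92349139 (- strand) and Oas1a at chr5:120907476-120907775 (- strand).
Ifitm3: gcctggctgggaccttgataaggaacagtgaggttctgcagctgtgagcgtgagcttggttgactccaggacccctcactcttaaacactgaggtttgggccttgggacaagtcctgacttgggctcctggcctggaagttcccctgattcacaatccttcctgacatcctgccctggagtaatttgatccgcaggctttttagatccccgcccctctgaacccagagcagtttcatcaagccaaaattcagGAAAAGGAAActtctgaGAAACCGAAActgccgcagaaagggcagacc
Gbp2: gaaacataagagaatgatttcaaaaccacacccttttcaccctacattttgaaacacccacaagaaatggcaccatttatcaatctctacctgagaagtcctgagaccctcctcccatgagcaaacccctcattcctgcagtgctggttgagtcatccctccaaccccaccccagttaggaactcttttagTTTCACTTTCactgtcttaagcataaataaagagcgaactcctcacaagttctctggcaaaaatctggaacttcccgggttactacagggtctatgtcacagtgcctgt
Oas1g: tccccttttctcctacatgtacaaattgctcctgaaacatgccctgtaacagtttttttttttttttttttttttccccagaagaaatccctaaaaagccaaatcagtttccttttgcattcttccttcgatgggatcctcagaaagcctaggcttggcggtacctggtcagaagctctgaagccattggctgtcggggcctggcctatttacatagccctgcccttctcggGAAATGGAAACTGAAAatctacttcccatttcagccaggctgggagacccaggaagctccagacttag
Gbp7: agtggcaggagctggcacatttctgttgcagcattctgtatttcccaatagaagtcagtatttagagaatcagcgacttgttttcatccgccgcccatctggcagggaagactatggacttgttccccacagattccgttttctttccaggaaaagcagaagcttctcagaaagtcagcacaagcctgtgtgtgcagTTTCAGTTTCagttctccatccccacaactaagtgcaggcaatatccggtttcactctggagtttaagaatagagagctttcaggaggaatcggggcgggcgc
Cxcl10: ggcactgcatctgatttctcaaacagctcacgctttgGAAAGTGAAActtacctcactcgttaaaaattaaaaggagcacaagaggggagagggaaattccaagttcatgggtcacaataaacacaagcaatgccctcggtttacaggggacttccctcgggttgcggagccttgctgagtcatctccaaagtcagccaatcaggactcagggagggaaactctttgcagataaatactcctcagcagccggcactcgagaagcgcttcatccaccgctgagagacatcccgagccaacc
Oas1a: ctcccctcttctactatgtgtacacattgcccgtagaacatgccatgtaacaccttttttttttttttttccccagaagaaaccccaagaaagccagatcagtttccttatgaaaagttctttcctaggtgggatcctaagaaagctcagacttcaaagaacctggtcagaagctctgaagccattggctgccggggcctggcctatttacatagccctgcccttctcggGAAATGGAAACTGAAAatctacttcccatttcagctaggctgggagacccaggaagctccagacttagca
Gbp2 and Gbp7 hold the match on the strand opposite to transcription, so it reads TTTC, 2 bases, TTTC there. Ifitm3, Oas1g and Oas1a each hold 2 matches, which in the Oas1 pair run into each other. Of the 30 antiviral members, 22 had a promoter window and 12 of these held the core. Windows were found for 13 of 18 nucleic acid sensors, of which 7 held the core, and for 20 of 23 MHC class I genes, of which 5 did. Only 5 of 11 guanylate-binding genes and 6 of 10 immunity-related GTPases had a window. All of these held the core, and the other members were not searched. By comparison 489 of the 12241 tested genes with a window held it (3.995%), 101 of 898 genes called higher (11.3%) and 16 of 556 called lower (2.88%). Over all 32851 RefSeq windows of the same length the share was 3.44%. A match describes letters in a window, and binding was not measured.

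**Figure D2:**
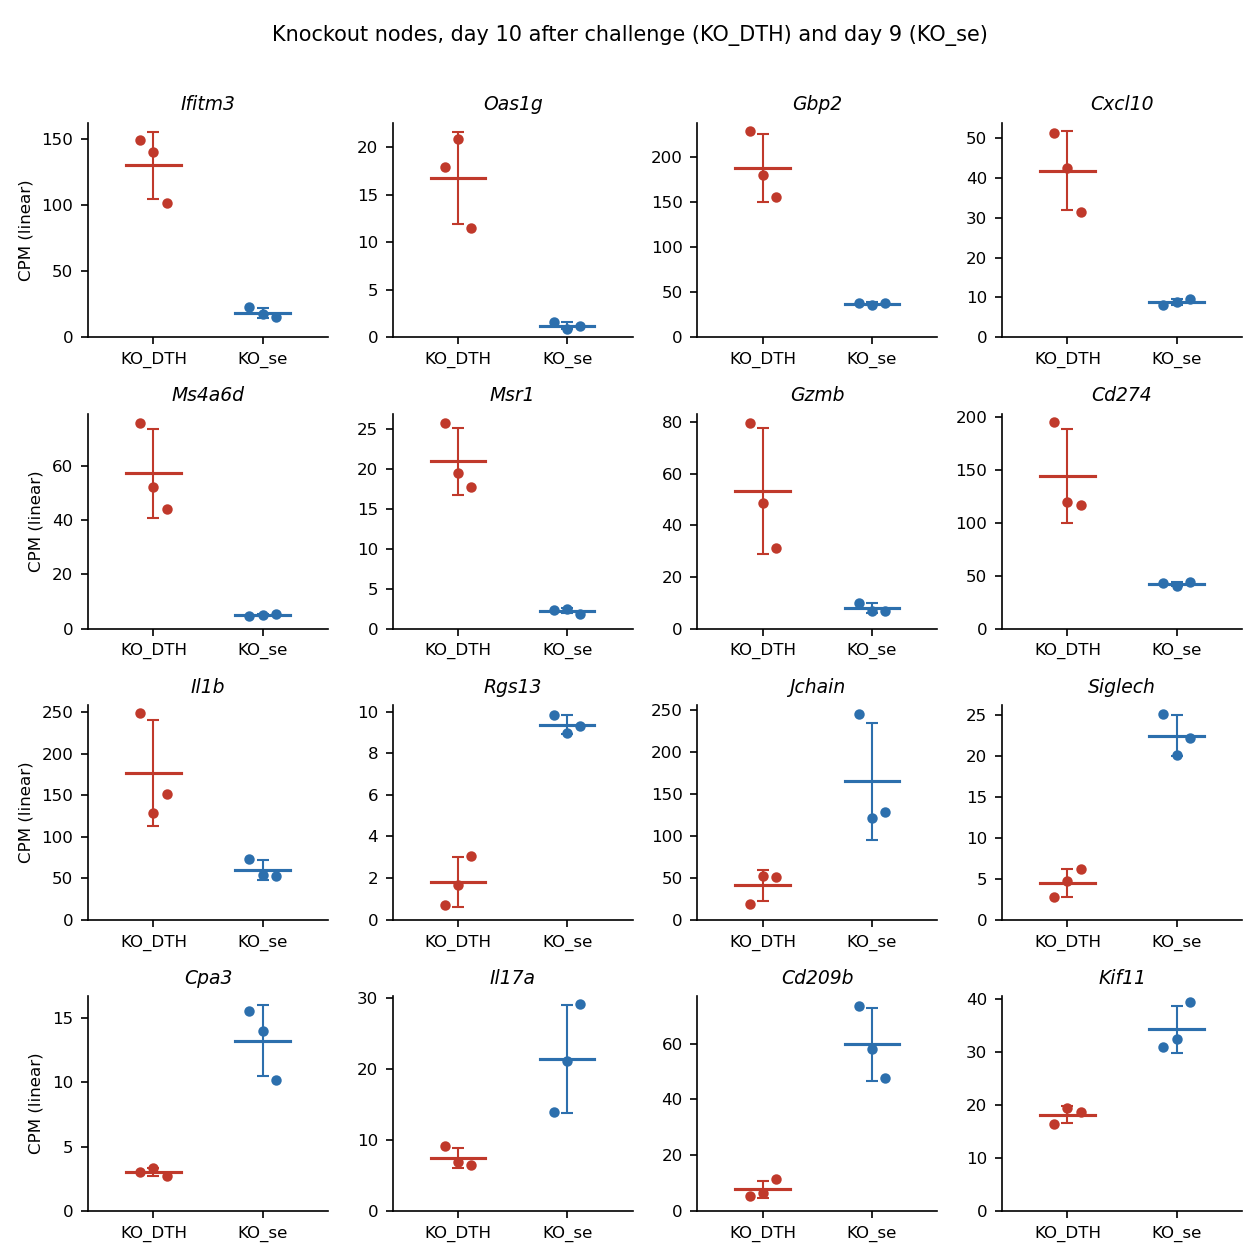
CPM of 16 genes in the 3 KO_DTH (red, left) and 3 KO_se (blue, right) libraries, on linear axes that start at 0, with points for libraries and bars for mean ± SD. The first 9 panels, Ifitm3 to Il1b, are higher in KO_DTH, the last 7, Rgs13 to Kif11, are lower, and within each panel the groups do not overlap.

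Sensors of foreign nucleic acid rose for 14 of 18 members, none fell, and the median was 1.19. Zbp1, which senses Z-form nucleic acid and can start necroptosis, had 248, 268 and 186 CPM in KO_DTH, against 44.2, 28.1 and 29.6 CPM in KO_se (log2 fold change 2.78 ± 0.27 (SE), adjusted p = 6.17e-05). The RNA helicases Ifih1 (MDA5) and Ddx58 (RIG-I) rose by 2.18 log2 units (adjusted p = 0.000131) and 1.17 log2 units (adjusted p = 0.000993), and their regulator Dhx58 (LGP2) by 2.53 log2 units (adjusted p = 6.67e-05). Of the DNA-binding p200 family, Ifi204 had 78.2, 65.9 and 39.8 CPM in KO_DTH, against 10.3, 5.10 and 5.24 CPM in KO_se, with no overlap (log2 fold change 3.15 ± 0.34 (SE), adjusted p = 0.000126). Ifi205 rose by 2.48 log2 units (adjusted p = 0.000259). These p200 genes form a cluster of similar sequence, so their separate values are uncertain. Tlr7, the endosomal receptor for single-stranded RNA, rose by 1.20 log2 units (adjusted p = 0.000937). The inflammasome DNA sensor Aim2 was at 39.9, 40.0 and 47.5 CPM in KO_DTH, against 43.7, 46.7 and 39.5 CPM in KO_se and its groups overlapped (log2 fold change -0.03 ± 0.12 (SE), adjusted p = 0.924).

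GTPases of cell-autonomous defence belong to 2 families. All 11 guanylate-binding proteins were higher in KO_DTH, with a median of 1.55, and summed to between 934 and 1292 CPM, against 384 to 431 CPM in KO_se. Gbp2, which coats and breaks the vacuoles of pathogens, had 229, 179.7 and 155 CPM in KO_DTH, against 37.8, 35.9 and 38.4 CPM in KO_se (log2 fold change 2.33 ± 0.17 (SE), adjusted p = 1.6e-05). Its sensitized values lay close together and KO_DTH replicate 1 was the highest of all 6. Gbp7 had 99.3, 90.3 and 72.5 CPM in KO_DTH, against 31.3, 27.9 and 29.1 CPM in KO_se (log2 fold change 1.57 ± 0.13 (SE), adjusted p = 3.45e-05), Gbp4 and Gbp6 rose by 1.32 log2 units (adjusted p = 5.14e-05) and 1.88 log2 units (adjusted p = 7.99e-05), and Gbp5, which also promotes inflammasome assembly, by 1.44 log2 units (adjusted p = 0.00146). Of the immunity-related GTPases 7 of 10 rose and none fell, with a median of 1.77: Irgm1, which regulates the others, rose by 2.14 log2 units (adjusted p = 7.23e-06), Igtp by 1.51 log2 units (adjusted p = 6.91e-05) and Iigp1, which loads onto parasite vacuoles, had 30.8, 29.6 and 23.6 CPM in KO_DTH, against 7.37, 7.94 and 5.19 CPM in KO_se (log2 fold change 2.03 ± 0.26 (SE), adjusted p = 0.000355). Members of the GBP family are similar in sequence and their separate values are uncertain, as are Tgtp1 and Tgtp2, adjacent copies, which rose by 1.42 log2 units (adjusted p = 6.62e-05) and 1.44 log2 units (adjusted p = 0.000102).

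The Schlafen and Ly6 families hold many members that respond to interferon. Of 7 tested Schlafen genes 6 were higher, with a median of 1.48. Slfn5, a nuclear regulator of transcription, had 143, 165 and 104 CPM in KO_DTH, against 34.1, 26.5 and 28.9 CPM in KO_se (log2 fold change 2.21 ± 0.22 (SE), adjusted p = 7.26e-05). Slfn4, which marks activated myeloid cells, had 93.3, 68.0 and 78.6 CPM in KO_DTH, against 20.9, 11.6 and 5.32 CPM in KO_se (log2 fold change 2.66 ± 0.46 (SE), adjusted p = 0.00309). Slfn1 and Slfn8 rose by 1.13 log2 units (adjusted p = 0.000391) and 1.49 log2 units (adjusted p = 0.000275). Members of both families resemble each other in sequence, so the split of reads between them is uncertain. Of 8 tested Ly6 genes 5 were higher, with a median of 0.70. Ly6i was among the largest rises of all genes, at 68.6, 42.0 and 22.9 CPM in KO_DTH, against 2.40, 2.09 and 2.54 CPM in KO_se, with every challenged library far above the sensitized ones (log2 fold change 4.25 ± 0.39 (SE), adjusted p = 5.35e-05). Ly6a (Sca-1), a surface protein that activated lymphocytes raise, had 265, 297 and 214 CPM in KO_DTH, against 82.3, 63.9 and 60.4 CPM in KO_se (log2 fold change 1.91 ± 0.18 (SE), adjusted p = 6.17e-05). Ly6e rose by 0.68 log2 units (adjusted p = 0.000596).

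In the MHC class I pathway of antigen presentation 18 of 23 tested genes rose and none fell (median 0.67), and in class II 2 of 11 did (median 0.18). Class II rises numbered 0 with the 2 salivary terms, 1 without the most salivary library of each group, 1 without KO_DTH replicates 1, 2 or 3 or KO_se replicates 2 or 3 and 1 with no filter on low counts or in the fit to the 6 knockout libraries alone. Tap1, which pumps peptides into the endoplasmic reticulum, had 385, 352 and 313 CPM in KO_DTH, against 161, 136 and 138 CPM in KO_se (log2 fold change 1.27 ± 0.11 (SE), adjusted p = 3.45e-05). Nlrc5, the transactivator of class I genes, had 422, 388 and 333 CPM in KO_DTH, against 166, 140.0 and 143 CPM in KO_se (log2 fold change 1.35 ± 0.12 (SE), adjusted p = 4.12e-05). Tapbp, which loads peptide onto class I, rose by 1.16 log2 units (adjusted p = 4.12e-05), and the non-classical H2-T23 by 0.94 log2 units (adjusted p = 0.000177). The classical heavy chain H2-D1 was at 2468, 2246 and 2106 CPM in KO_DTH, against 1564, 1483 and 1466 CPM in KO_se. Its groups did not overlap (log2 fold change 0.60 ± 0.08 (SE), adjusted p = 0.000839), H2-K1 rose by 0.46 log2 units (adjusted p = 0.00866), and the similar sequences of class I genes make the split of reads between them uncertain. The immunoproteasome subunits Psmb8, Psmb9 and Psmb10, which cut the peptides, rose by 0.59 log2 units (adjusted p = 0.00178), 0.69 log2 units (adjusted p = 0.00205) and 0.83 log2 units (adjusted p = 0.000487). The shared light chain B2m had a log2 fold change of 0.18 (adjusted p = 0.384). H2-K1 and Psmb9 lost the call with the 2 salivary terms.

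In class II, Ctss, the protease that trims the invariant chain, had 539, 525 and 457 CPM in KO_DTH, against 349, 370.1 and 342 CPM in KO_se (log2 fold change 0.52 ± 0.09 (SE), adjusted p = 0.00287). The class II chains themselves did not pass: H2-Aa had 2264, 2563 and 2546 CPM in KO_DTH, against 2843, 2871 and 2159 CPM in KO_se, with overlapping groups (log2 fold change -0.09 ± 0.13 (SE), adjusted p = 0.734). Cd74, the invariant chain, had 5712, 6472 and 6109 CPM in KO_DTH, against 5356, 5143 and 3669 CPM in KO_se (log2 fold change 0.37 ± 0.14 (SE), adjusted p = 0.136), and the class II transactivator Ciita had a log2 fold change of 0.00 (adjusted p = 0.992). In wild-type nodes, where 9.77% of all genes were called higher and 8.97% lower, 10 of the 11 rose, with a median of 0.85, and the difference between the genotypes passed its own test for 2 members, H2-Aa among them (-0.82 ± 0.19 (SE), adjusted p = 0.0438), against 2.11% of all genes tested. H2-Aa lost this call without KO_se replicate 1, KO_se replicate 2, KO_DTH replicate 1 or KO_DTH replicate 2 (adjusted p up to 0.119). Ctss lost the call with the 2 salivary terms.

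The 3 chemokines that interferons induce, ligands of the receptor CXCR3 on effector T cells, all rose. Cxcl9 had 62.5, 36.9 and 30.0 CPM in KO_DTH, against 6.36, 3.31 and 6.52 CPM in KO_se (log2 fold change 3.0 ± 0.33 (SE), adjusted p = 0.000131). Cxcl10 had 51.3, 42.6 and 31.6 CPM in KO_DTH, against 8.12, 8.91 and 9.60 CPM in KO_se (log2 fold change 2.24 ± 0.20 (SE), adjusted p = 4.34e-05). KO_DTH replicate 1 was the highest library for both, and no sensitized library came near a challenged one. Cxcl11 had 2.15, 0.882 and 0.458 CPM in KO_DTH, against 0, 0 and 0.0855 CPM in KO_se (log2 fold change 5.28 ± 1.09 (SE), adjusted p = 0.0128), and the receptor Cxcr3 overlapped between the groups, with a log2 fold change of 0.04 (adjusted p = 0.933). Cxcl11 lost the call with the 2 salivary terms and without KO_DTH replicate 1 (adjusted p = 0.0622).

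Of the inflammatory CC chemokines 5 of 14 rose. CC chemokine rises numbered 1 with the 2 salivary terms, 2 without the most salivary library of each group and 2 without KO_DTH replicate 1 or KO_se replicates 1, 2 or 3. Ccl7, a monocyte attractant that acts through CCR2, had 8.26, 10.2 and 6.58 CPM in KO_DTH, against 1.90, 2.15 and 1.77 CPM in KO_se (log2 fold change 2.10 ± 0.23 (SE), adjusted p = 0.000111). Ccl6, a chemokine of myeloid cells, rose by 1.17 log2 units (adjusted p = 0.000948). Every challenged Ccl7 value lay above the sensitized ones. Ccr2, the receptor of Ccl7 on monocytes, had a log2 fold change of 0.46 (adjusted p = 0.214). None of the 10 homeostatic chemokines, which keep lymphocytes in their zones, passed edgeR's test (4 had an unadjusted p under 0.05, and DESeq2 called 1 lower): Ccl21a of the T zone was at -1.19 log2 units (adjusted p = 0.169) and Cxcl13 of the follicles at -1.11 log2 units (adjusted p = 0.154). Ccr7, the receptor for Ccl21a, was at -0.27 log2 units (adjusted p = 0.184). Ccl6 lost the call with the 2 salivary terms.

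Genes of inflammatory monocytes rose nearly as a block: 23 of 28 were higher in KO_DTH, none lower, with a median of 1.6 and a summed level of 2588 to 3063 CPM, against 1182 to 1415 CPM in KO_se. Ms4a6d, a membrane protein of macrophages, had 75.6, 52.1 and 44.1 CPM in KO_DTH, against 4.81, 5.01 and 5.28 CPM in KO_se. The 3 sensitized libraries barely differed and the 3 challenged ones were all far above them (log2 fold change 3.51 ± 0.22 (SE), adjusted p = 7.23e-06). Tgfbi, a matrix protein secreted by macrophages, had 224, 191 and 198 CPM in KO_DTH, against 40.3, 36.4 and 30.1 CPM in KO_se (log2 fold change 2.52 ± 0.20 (SE), adjusted p = 3.29e-05). Clec4a1, a C-type lectin, rose by 2.63 log2 units (adjusted p = 3.45e-05), Csf1r, the receptor that monocytes and macrophages need to survive, by 1.18 log2 units (adjusted p = 0.000678), Cd14, the coreceptor for bacterial lipopolysaccharide, by 1.21 log2 units (adjusted p = 0.001), and Vcan, a matrix proteoglycan, by 2.12 log2 units (adjusted p = 0.00509). Ly6c2, the marker of classical monocytes, had 279, 243 and 194 CPM in KO_DTH, against 106, 87.1 and 78.2 CPM in KO_se (log2 fold change 1.4 ± 0.19 (SE), adjusted p = 0.000606). Lysozyme (Lyz2), shared by most myeloid cells, had 805, 615 and 675 CPM in KO_DTH, against 539.7, 434 and 368 CPM in KO_se (log2 fold change 0.64 ± 0.22 (SE), adjusted p = 0.0854).

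In the list of complement and Fc receptors 12 of 25 members rose and 1 fell. It shares its largest rise, Fcgr1, with the monocyte list, so the counts of these lists are not independent. Complement and Fc receptor rises numbered 7 without the most salivary library of each group. Complement and Fc receptor falls numbered 0 in both salivary alternatives and 0 without KO_DTH replicates 1 or 2 or KO_se replicates 1 or 2. Fcgr1, the high affinity IgG receptor, and Fcgr4 rose by 3.73 log2 units (adjusted p = 5.14e-05) and 3.24 log2 units (adjusted p = 6.91e-05). Fcgr4 had 19.9, 19.8 and 13.9 CPM in KO_DTH, against 2.86, 1.51 and 1.28 CPM in KO_se, again with no overlap. The low affinity receptors moved less, at 1.39 log2 units (adjusted p = 0.00131) for activating Fcgr3 and 0.88 log2 units (adjusted p = 0.00146) for inhibitory Fcgr2b. Cfb, complement factor B of the alternative pathway, had 193, 123 and 102 CPM in KO_DTH, against 34.0, 27.4 and 19.1 CPM in KO_se (log2 fold change 2.38 ± 0.29 (SE), adjusted p = 0.000255). C3ar1, a receptor for complement fragment C3a, rose by 1.89 log2 units (adjusted p = 0.000742). C3 itself had 121, 101 and 88.0 CPM in KO_DTH, against 63.5, 35.6 and 36.8 CPM in KO_se (log2 fold change 1.19 ± 0.23 (SE), adjusted p = 0.0059). C3 lost the call without the most salivary library of each group.

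Of 23 tested genes of the sinus and medullary macrophages that reside in the node 7 rose and 2 fell. The falls were Cd209b, a lectin of marginal and sinus macrophages, at 5.53, 6.47 and 11.4 CPM in KO_DTH, against 73.5, 58.2 and 47.5 CPM in KO_se (log2 fold change -2.94 ± 0.34 (SE), adjusted p = 0.000178), and Timd4, a receptor for dying cells, at 3.40, 3.19 and 5.57 CPM in KO_DTH, against 34.6, 25 and 18.0 CPM in KO_se (log2 fold change -2.68 ± 0.33 (SE), adjusted p = 0.000323). In both, the highest challenged library stayed below the lowest sensitized one. Among the rises, Cd68, a lysosomal protein of phagocytes, had 40.1, 44.1 and 35.6 CPM in KO_DTH, against 21.2, 14.9 and 16.9 CPM in KO_se (log2 fold change 1.18 ± 0.18 (SE), adjusted p = 0.00116), and C1qb of the first complement component rose by 1.14 log2 units (adjusted p = 0.00438). Siglec1, another gene of sinus macrophages, went against the falls of Cd209b and Timd4 and rose by 0.83 log2 units (adjusted p = 0.0439). Marco, a scavenger receptor of medullary macrophages, overlapped between the groups, with 14.3, 32.5 and 35.8 CPM in KO_DTH, against 40.3, 44.0 and 28.0 CPM in KO_se (log2 fold change -0.44 ± 0.34 (SE), adjusted p = 0.481). The count of 7 rises was 1 with the 2 salivary terms and 2 without the most salivary library of each group, beside the shares of salivary RNA given above. It was 4 without KO_DTH replicate 1, KO_DTH replicate 2 or KO_se replicate 3, and 3 without KO_se replicate 2. C1qb and Cd68 lost the call with the 2 salivary terms, and C1qb without the most salivary library of each group. Siglec1 lost it in both salivary alternatives, with no filter on low counts and without any knockout library but KO_DTH replicate 3 (adjusted p up to 0.153).

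Dendritic cell genes moved both ways, 4 up and 3 down of 28, with a median of -0.05. Dendritic cell gene falls numbered 1 in both salivary alternatives, 5 in DESeq2's Wald test and 5 in the fit to the 6 knockout libraries alone. Siglech, which marks plasmacytoid dendritic cells, the main makers of type I interferon, had 2.77, 4.68 and 6.20 CPM in KO_DTH, against 25.1, 20.1 and 22.2 CPM in KO_se. No challenged library reached the level of any sensitized one (log2 fold change -2.31 ± 0.24 (SE), adjusted p = 8.5e-05). Ccr9, another gene of these cells, fell by 0.95 on the log2 scale (adjusted p = 0.00539). Sirpa, an inhibitory receptor of conventional type 2 dendritic cells and monocytes, had 153, 117 and 109 CPM in KO_DTH, against 38, 35.9 and 35.5 CPM in KO_se (log2 fold change 1.79 ± 0.20 (SE), adjusted p = 0.000125). The costimulatory ligands Cd80 and Cd86, which activate T cells through CD28, rose by 1.5 log2 units (adjusted p = 0.00369) and 0.85 log2 units (adjusted p = 0.00557), with Cd80 at 22.9, 10.2 and 16.2 CPM in KO_DTH, against 5.74, 6.61 and 5.17 CPM in KO_se. Clec9a and Xcr1 of cross-presenting type 1 dendritic cells had log2 fold changes of -1.24 (adjusted p = 0.0761) and -0.92 (adjusted p = 0.196). Ccr9 lost the call with the 2 salivary terms and without the most salivary library of each group.

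Of 23 neutrophil genes 1 rose, Il1r2, the decoy receptor for IL-1, with 48.4, 37.3 and 49.5 CPM in KO_DTH, against 23.3, 24.1 and 22.6 CPM in KO_se (log2 fold change 0.95 ± 0.20 (SE), adjusted p = 0.00936), and the median was -0.23. The calprotectin subunit S100a8 had 40.5, 44.0 and 109 CPM in KO_DTH, against 92.8, 99.0 and 62.1 CPM in KO_se, with overlapping groups and KO_DTH replicate 3 the highest library (log2 fold change -0.39 ± 0.37 (SE), adjusted p = 0.587). In wild-type nodes 11 of the 23 rose, against 9.77% of all genes there, with a median of 1.45, but the difference between the genotypes passed for none of them in edgeR's test, while 17 had an unadjusted p under 0.05 and DESeq2 called 4, with S100a8 at -2.13 ± 0.53 (SE), adjusted p = 0.0596.

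Of 19 tested genes of mast cells, basophils and eosinophils 6 were lower, against 3.86% of all genes, and none was higher, with a median of -1.36. Cpa3, mast cell carboxypeptidase, had 3.03, 3.38 and 2.75 CPM in KO_DTH, against 15.6, 14 and 10.2 CPM in KO_se (log2 fold change -2.12 ± 0.38 (SE), adjusted p = 0.00437). The chymase Mcpt4 had 6.77, 6.10 and 4.27 CPM in KO_DTH, against 22.7, 21.9 and 10.6 CPM in KO_se (log2 fold change -1.69 ± 0.36 (SE), adjusted p = 0.0108). Each challenged library was below each sensitized one in both. Mrgprb2, a receptor that triggers degranulation, had no count in any KO_DTH library and 0.215, 0.387 and 0.363 CPM in KO_se, which makes it at least 14.2-fold lower against a floor of 3 counts over the group. Basophil proteases did not pass, with Mcpt8 at -0.30 log2 units (adjusted p = 0.914) and Prss34 at -0.97 log2 units (adjusted p = 0.476). The number of falls was 0 with the 2 salivary terms and 3 without the most salivary library of each group or without KO_se replicate 2. Cpa3, Mcpt4 and Mrgprb2 lost the call with the 2 salivary terms.

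In the inflammasome list 11 of 22 genes rose and none fell (median 0.62), and in the list of proinflammatory cytokines 4 of 28. Il1b, the main product of inflammasomes, had 248, 128 and 152 CPM in KO_DTH, against 73.6, 54.1 and 52.7 CPM in KO_se (log2 fold change 1.55 ± 0.26 (SE), adjusted p = 0.00282). Il1rn, the antagonist that blocks its receptor, had 62.8, 35.8 and 32.4 CPM in KO_DTH, against 5.65, 3.27 and 3.93 CPM in KO_se (log2 fold change 3.35 ± 0.31 (SE), adjusted p = 5.85e-05). The groups did not overlap in either gene. Il18bp, which neutralizes IL-18, rose by 1.36 log2 units (adjusted p = 0.000572). Nlrp3, the sensor that assembles the best known inflammasome, had 29.2, 19.1 and 19.1 CPM in KO_DTH, against 5.72, 6.93 and 8.57 CPM in KO_se (log2 fold change 1.67 ± 0.31 (SE), adjusted p = 0.00509), Mefv (pyrin) rose by 1.61 log2 units (adjusted p = 0.00161), and Gsdmd and Mlkl, which open membrane pores in pyroptosis and necroptosis, by 0.68 log2 units (adjusted p = 0.0021) and 2.36 log2 units (adjusted p = 0.000744). Casp1, which cleaves pro-IL-1β, had 29.1, 28.2 and 27.3 CPM in KO_DTH, against 27.6, 25.2 and 25.8 CPM in KO_se and did not pass (log2 fold change 0.11 ± 0.12 (SE), adjusted p = 0.667). Nlrp3 lost the call with the 2 salivary terms.

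Osm, a cytokine of the IL-6 family, had 36.3, 17.2 and 25 CPM in KO_DTH, against 10.6, 8.91 and 7.33 CPM in KO_se (log2 fold change 1.55 ± 0.23 (SE), adjusted p = 0.00106), and Saa3, an acute-phase protein of macrophages, 5.63, 10.2 and 18.6 CPM in KO_DTH, against 0.197, 1.76 and 0.192 CPM in KO_se (log2 fold change 4.01 ± 0.81 (SE), adjusted p = 0.00803). Tnf and Il6 were at 0.44 log2 units (adjusted p = 0.22) and 0.54 log2 units (adjusted p = 0.467). KO_DTH replicate 3, the lowest challenged library for Ifitm3 and Isg15, was the highest for Saa3. Cd274 (PD-L1), the ligand that restrains T cells and that interferon induces, had 196, 120.1 and 117 CPM in KO_DTH, against 42.9, 40.4 and 43.7 CPM in KO_se (log2 fold change 1.77 ± 0.18 (SE), adjusted p = 7.9e-05). Saa3 lost the call without the most salivary library of each group.

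**Figure D3:**
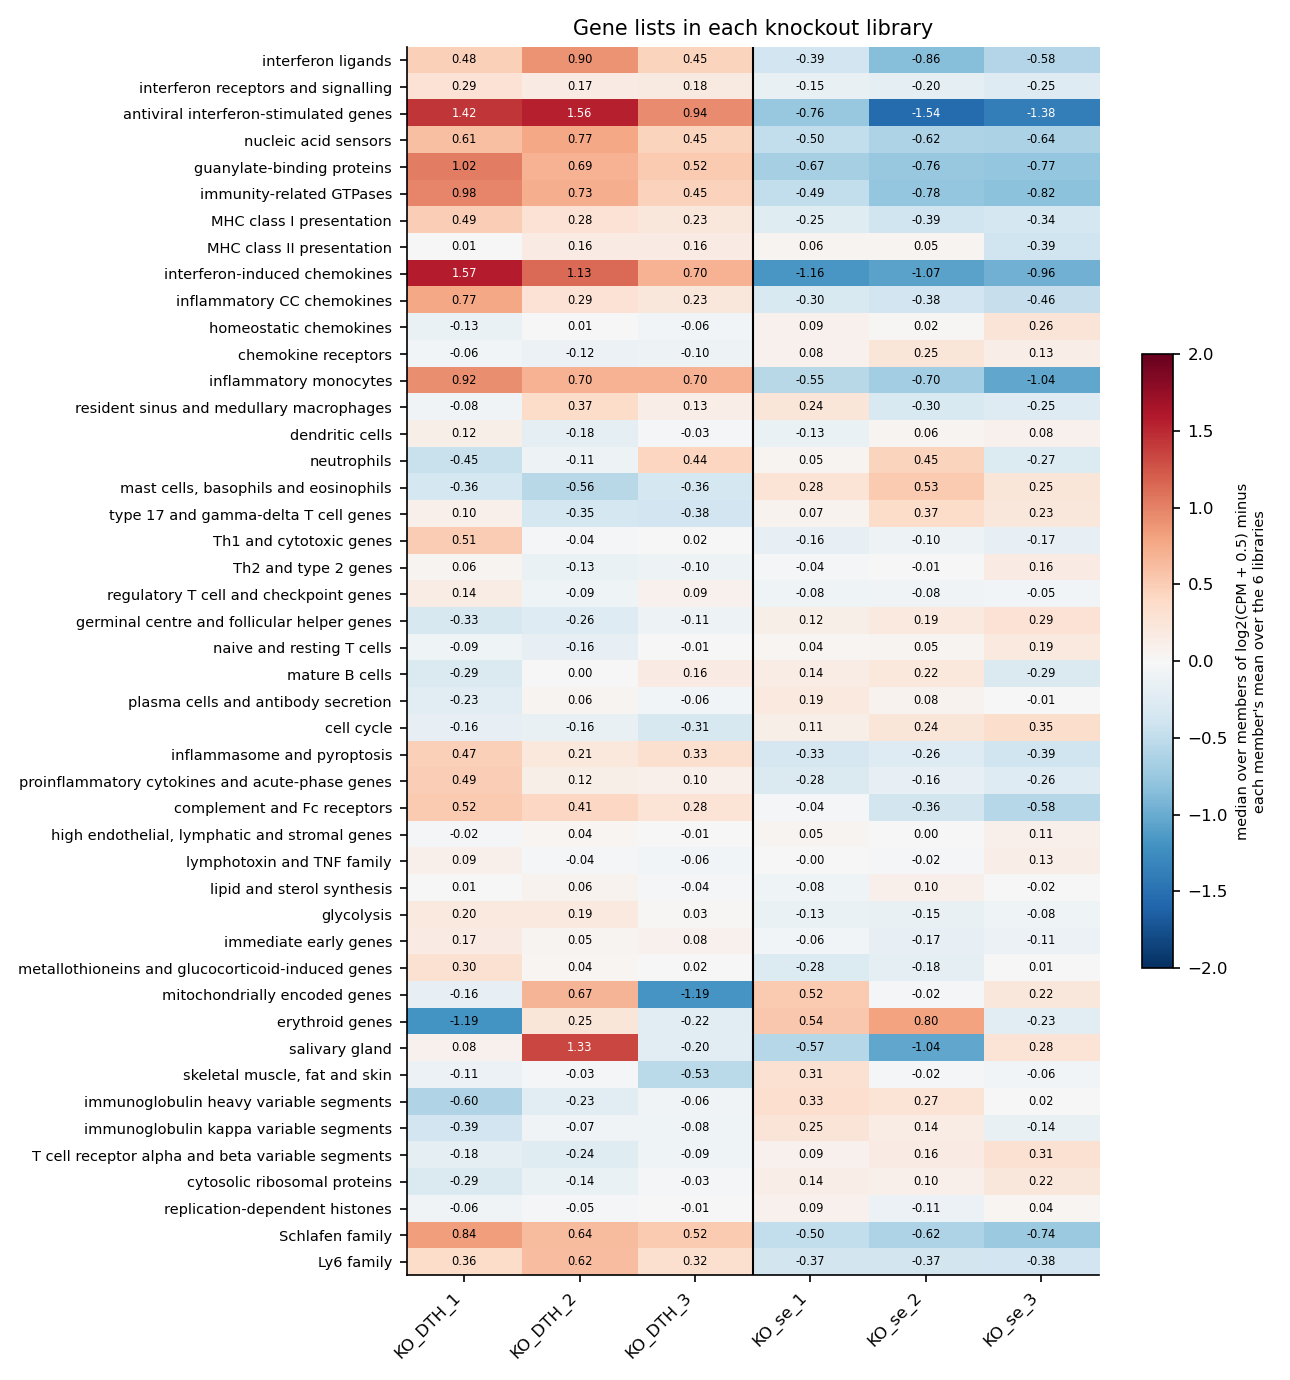
Level of 46 gene lists in each library, KO_DTH left and KO_se right of the line, as the median over tested members of log2(CPM + 0.5) minus the member's mean over the 6 libraries, red above and blue below that mean. The interferon signalling, antiviral, monocyte and interferon-induced chemokine lists are red in all KO_DTH libraries, at 0.94 to 1.56 for antiviral genes, and blue in all KO_se libraries, while salivary, mitochondrial and erythroid lists vary within groups.

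Genes of Th1 and cytotoxic cells rose for 7 of 26 members and fell for 1. Th1 and cytotoxic gene rises numbered 2 with the 2 salivary terms, 1 without the most salivary library of each group and 1 to 4 without KO_DTH replicate 1 or KO_se replicates 1, 2 or 3. Th1 and cytotoxic gene falls numbered 0 in both salivary alternatives and 0 without KO_DTH replicates 1 or 2 or KO_se replicate 3. Gzmb, a granzyme of killer cells, had 79.6, 48.6 and 31.4 CPM in KO_DTH, against 10.1, 6.76 and 6.99 CPM in KO_se. KO_DTH replicate 1 was the highest, and the lowest challenged library was still well above the sensitized ones (log2 fold change 2.74 ± 0.37 (SE), adjusted p = 0.000619). The pore protein Prf1, which lets granzymes into target cells, had 40.6, 22.7 and 27.9 CPM in KO_DTH, against 27.4, 24.9 and 25.3 CPM in KO_se and overlapped (log2 fold change 0.23 ± 0.19 (SE), adjusted p = 0.501). The CD8 chain Cd8a had a log2 fold change of -0.23 (adjusted p = 0.199).

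Of 24 tested genes of type 17 and gamma-delta T cells 3 fell and none rose, with a median of -0.42. Type 17 gene falls numbered 1 with the 2 salivary terms, 0 without the most salivary library of each group, 1 to 6 without KO_DTH replicates 1 or 2 or KO_se replicates 2 or 3, 7 in DESeq2's Wald test and 1 with a replicate block. DESeq2's Wald test also called 2 members higher. Il17a, the cytokine named in the study's title, had 9.12, 6.94 and 6.46 CPM in KO_DTH, against 13.9, 21.2 and 29.1 CPM in KO_se. All challenged libraries were below the sensitized ones (log2 fold change -1.51 ± 0.29 (SE), adjusted p = 0.00648). Il17f had 3.40, 3.04 and 3.52 CPM in KO_DTH, against 6.15, 10.8 and 17.1 CPM in KO_se (log2 fold change -1.77 ± 0.47 (SE), adjusted p = 0.0326). The gamma-delta T cell receptor constant genes Trdc and Tcrg-C1 had log2 fold changes of -0.57 (adjusted p = 0.13) and -0.69 (adjusted p = 0.0807). Il22 lay under 1 CPM in all 6 libraries. In wild-type nodes 5 of the 24 rose and 2 fell, against 9.77% and 8.97% of all genes there. The difference between the genotypes passed edgeR's test for 3 of the 24, against 2.11% of all genes tested. Of these 3, only 2 had a more negative challenge effect in the knockout. Il17a had a log2 fold change of 0.48 in wild-type nodes, and its difference between the genotypes was -1.99 ± 0.46 (SE), adjusted p = 0.0476. That difference missed the threshold without each knockout library in turn (adjusted p from 0.0525 to 0.109). Il17a and Il17f lost the call without the most salivary library of each group, and Il17f with a replicate block, with the 2 salivary terms and without KO_se replicate 2, KO_se replicate 3, KO_DTH replicate 1, KO_DTH replicate 2 or KO_DTH replicate 3 (adjusted p up to 0.139).

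No Th2 gene of 13 tested passed in edgeR's test, 2 had an unadjusted p under 0.05, and DESeq2 called 1. Il4 and Il13 stayed under 1 CPM in every library, and Gata3, the Th2 factor, had 15.1, 12.6 and 12.6 CPM in KO_DTH, against 12.8, 12.7 and 18.4 CPM in KO_se, with overlap (log2 fold change -0.12 ± 0.17 (SE), adjusted p = 0.74). Of 22 genes of regulatory T cells and checkpoints 4 rose, Cd274 among them, and 1 fell. Regulatory T cell and checkpoint gene rises numbered 2 in both salivary alternatives, 1 to 2 without any 1 library and 2 with no filter on low counts. Regulatory T cell and checkpoint gene falls numbered 0 in both salivary alternatives and 0 without KO_DTH replicates 1 or 2 or KO_se replicate 2. Foxp3, which defines regulatory T cells, had 56.2, 52.8 and 54.8 CPM in KO_DTH, against 44.4, 42.3 and 44.9 CPM in KO_se (log2 fold change 0.32 ± 0.12 (SE), adjusted p = 0.109), and Il10 3.56, 4.07 and 3.64 CPM in KO_DTH, against 5.20, 6.56 and 6.11 CPM in KO_se (log2 fold change -0.67 ± 0.25 (SE), adjusted p = 0.125). Neither passed, although the groups did not overlap in either, as in 30.1% of all tested genes. Among naive and resting T cell genes 1 of 24 rose, Satb1, a chromatin organizer of T cells, at 0.65 log2 units (adjusted p = 0.00153), and 3 fell, while Tcf7 and Lef1 had log2 fold changes of -0.03 (adjusted p = 0.92) and -0.07 (adjusted p = 0.755). In wild-type nodes 16 of these 24 fell, against 8.97% of all genes there. The difference between the genotypes passed edgeR's test for 1, against 2.11% of all genes tested, while 10 had an unadjusted p under 0.05 and DESeq2 called 5. Naive T cell gene falls numbered 1 with the 2 salivary terms, 0 without the most salivary library of each group, 1 to 5 without KO_DTH replicates 2 or 3 or KO_se replicate 3 and 5 in DESeq2's Wald test.

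Among germinal centre and follicular helper genes 5 of 20 fell and 1 rose, with a median of -0.45. Germinal centre gene rises numbered 0 in both salivary alternatives and 0 without KO_DTH replicate 2 or KO_se replicates 2 or 3. Germinal centre gene falls numbered 0 in both salivary alternatives, 1 to 3 without KO_DTH replicates 1 or 2 or KO_se replicates 1 or 2 and 3 with no filter on low counts. Rgs13, a regulator of G protein signalling in germinal centre B cells, had 0.697, 1.69 and 3.09 CPM in KO_DTH, against 9.85, 8.97 and 9.30 CPM in KO_se (log2 fold change -2.37 ± 0.50 (SE), adjusted p = 0.0108). All challenged libraries were below the sensitized ones. Bcl6, the factor that directs the germinal centre programme, did not pass, at 0.30 log2 units (adjusted p = 0.189). Rgs13 lost the call with the 2 salivary terms and without the most salivary library of each group.

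Of the plasma cell genes 5 of 25 fell and 2 rose. Plasma cell gene rises numbered 0 in both salivary alternatives, 0 to 4 without any 1 library, 4 in DESeq2's Wald test and 1 to 4 with no filter on low counts, with a replicate block or with the sex of the library as a term. Plasma cell gene falls numbered 1 with the 2 salivary terms, 8 in DESeq2's Wald test and 3 in the fit to the 6 knockout libraries alone. Jchain, which links IgA and IgM polymers, had 19.2, 52.8 and 50.9 CPM in KO_DTH, against 245, 121 and 129 CPM in KO_se (log2 fold change -2.01 ± 0.43 (SE), adjusted p = 0.0117). KO_se replicate 1 was the highest and KO_DTH replicate 1 the lowest. Ighm, the constant region of IgM, had a log2 fold change of -0.23 (adjusted p = 0.293). Xbp1, the factor of the secretory programme, went the other way, at 204, 207 and 164 CPM in KO_DTH, against 144, 106 and 114 CPM in KO_se (log2 fold change 0.66 ± 0.14 (SE), adjusted p = 0.00975), and it is also expressed in secretory glands. The lambda constant gene Iglc2 had 37.7, 54.5 and 54.9 CPM in KO_DTH, against 102, 102 and 92.0 CPM in KO_se (log2 fold change -1.01 ± 0.14 (SE), adjusted p = 0.000715), and it has close copies among which reads may be split. Of 95 tested heavy chain variable segments 14 fell and none rose (median -0.64), and of 122 T cell receptor alpha and beta variable segments 9 fell and none rose. Kappa chain variable segments did not share this: 1 of 93 fell (1.08%, against 3.86% of all genes) and none rose. Their median was -0.35, and their median levels by library overlapped between the groups. Heavy chain segment falls numbered 2 with the 2 salivary terms, 4 without the most salivary library of each group, 1 to 7 without KO_DTH replicates 1 or 2 or KO_se replicates 1 or 2, 22 in DESeq2's Wald test and 4 to 7 with no filter on low counts, in the fit to the 6 knockout libraries alone, with a replicate block or with the sex of the library as a term. T cell receptor segment falls numbered 0 in both salivary alternatives, 2 to 5 without KO_DTH replicates 1 or 2 or KO_se replicates 2 or 3 and 15 in DESeq2's Wald test. All immunoglobulin genes together took 0.418 ± 0.0930% of counts in KO_DTH and 0.570 ± 0.104% in KO_se (SD, n = 3 each, exact permutation p = 0.2). Of 23 mature B cell genes 0 were higher and 2 lower with a median of -0.07, while in wild-type nodes 12 rose, against 9.77% of all genes there. In edgeR's test of the difference between the genotypes 3 of the 23 passed, against 2.11% of all genes tested. An unadjusted p under 0.05 was reached by 18 of them, against 3215 of all 20034 genes, and DESeq2 called 7, against 1240 of all genes. Mature B cell gene falls numbered 1 in both salivary alternatives and 1 without KO_DTH replicates 1 or 2 or KO_se replicates 1 or 2. Ms4a1 (CD20) had 215, 281 and 309.6 CPM in KO_DTH, against 343, 379 and 312 CPM in KO_se (log2 fold change -0.36 ± 0.14 (SE), adjusted p = 0.121), and its difference between the genotypes was -1.02 ± 0.19 (SE), adjusted p = 0.0282. Ms4a1 missed the threshold of this test when KO_se replicate 1, KO_se replicate 2, KO_DTH replicate 1 or KO_DTH replicate 2 was left out (adjusted p up to 0.0822). Jchain and Xbp1 lost the call with the 2 salivary terms, and Xbp1 without the most salivary library of each group and without KO_se replicate 2 (adjusted p = 0.0514).

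Of the cell cycle genes 9 of 46 fell and 1 rose, 38 had negative log2 fold changes and the median was -0.49. Kif11, the motor that separates spindle poles, had 16.4, 19.4 and 18.7 CPM in KO_DTH, against 30.9, 32.5 and 39.3 CPM in KO_se. The spread within each group was small beside the gap between them (log2 fold change -0.91 ± 0.19 (SE), adjusted p = 0.00837). Cenpe, a kinetochore motor, had 10.6, 11 and 9.81 CPM in KO_DTH, against 22.7, 23 and 22.7 CPM in KO_se (log2 fold change -1.12 ± 0.23 (SE), adjusted p = 0.00935). Mki67, the proliferation marker, had 96.7, 83.4 and 83.0 CPM in KO_DTH, against 137, 162 and 159.9 CPM in KO_se (log2 fold change -0.80 ± 0.23 (SE), adjusted p = 0.0458). Top2a was at -0.78 log2 units (adjusted p = 0.0505). The 1 rise of the list was Cdt1, at 0.53 log2 units (adjusted p = 0.0173). Cdt1 lost the call in both salivary alternatives and without KO_se replicate 3 or KO_DTH replicate 3. Outside this list, Cdkn1a, the p21 inhibitor of the cycle, also rose, with 138, 83.0 and 78.3 CPM in KO_DTH, against 48.6, 43.9 and 47.1 CPM in KO_se (log2 fold change 1.10 ± 0.17 (SE), adjusted p = 0.00153). The count of falls varied with the processing, from 1 with the 2 salivary terms to 18 in the fit to the 6 knockout libraries alone, and it was 2 to 5 without each knockout library in turn. In wild-type nodes 10 of the 46 rose, against 9.77% of all genes there, and none fell, with a median of 0.28. The difference between the genotypes passed edgeR's test for 2 of the 46, against 2.11% of all genes tested. An unadjusted p under 0.05 was reached by 36 of the 46, against 3215 of all 20034 genes, and DESeq2 called 14, against 1240 of all genes. Cenpe and Mki67 lost the call with the 2 salivary terms, Cenpe, Kif11 and Mki67 without the most salivary library of each group, and Mki67 with no filter on low counts and without each library in turn (adjusted p up to 0.127).

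Of 20 glycolysis genes 8 rose and 1 fell (median 0.33). Glycolysis gene rises numbered 3 with the 2 salivary terms, 2 without the most salivary library of each group, 2 to 4 without KO_DTH replicates 1 or 2 or KO_se replicates 1, 2 or 3 and 4 with no filter on low counts or in the fit to the 6 knockout libraries alone. Hk3, the hexokinase of myeloid cells, had 24.9, 16.1 and 13.8 CPM in KO_DTH, against 5.33, 4.05 and 4.30 CPM in KO_se (log2 fold change 2.00 ± 0.24 (SE), adjusted p = 0.00025). Pdk1, which keeps pyruvate from being burnt in mitochondria, had 56.7, 57.8 and 61.6 CPM in KO_DTH, against 80.8, 79.3 and 97.5 CPM in KO_se (log2 fold change -0.55 ± 0.09 (SE), adjusted p = 0.00263). Of 82 cytosolic ribosomal protein genes 11 fell and none rose (median -0.29), and they summed to 70955 to 84666 CPM in KO_DTH, against 93108 to 99757 CPM in KO_se. Ribosomal protein gene falls numbered 0 in both salivary alternatives, 0 to 19 without any 1 library, 39 in DESeq2's Wald test and 18 with DESeq2's size factors or with a mean of at least 50 counts. None of the 13 mitochondrially encoded genes passed in edgeR's test, at an unadjusted p under 0.05 or in DESeq2, mt-Co1 ranging from 15866 to 55950.0 CPM in KO_DTH and from 38115 to 55976 CPM in KO_se. The metal-binding metallothionein Mt1 had 31.7, 42.6 and 19.5 CPM in KO_DTH, against 13, 12.1 and 12.2 CPM in KO_se (log2 fold change 1.33 ± 0.24 (SE), adjusted p = 0.00411). Mt1 lost the call with the 2 salivary terms and without the most salivary library of each group.

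Of 31 genes of high endothelium, lymphatics and stroma 3 rose. Stromal gene rises numbered 0 with the 2 salivary terms. Kdr, the VEGF receptor of endothelium, had 17.7, 13.4 and 7.71 CPM in KO_DTH, against 3.58, 3.03 and 5.11 CPM in KO_se (log2 fold change 1.73 ± 0.28 (SE), adjusted p = 0.00195). Ltbr, the lymphotoxin beta receptor of stroma and myeloid cells, had 18.1, 18.7 and 10.7 CPM in KO_DTH, against 5.63, 3.53 and 5.88 CPM in KO_se (log2 fold change 1.66 ± 0.28 (SE), adjusted p = 0.0025). Of 28 salivary genes 22 had positive log2 fold changes, 2 rose and none fell, with a median of 1.4, and several varied widely within groups. Salivary gene rises numbered 0 with the 2 salivary terms, 0 to 7 without KO_DTH replicates 2 or 3 or KO_se replicates 1, 2 or 3, 4 in DESeq2's Wald test and 0 to 4 with no filter on low counts, in the fit to the 6 knockout libraries alone, with a replicate block or with the sex of the library as a term. Dcpp3, a secreted gland protein with near-identical neighbours, had 24706, 13779 and 10344 CPM in KO_DTH, against 87.5, 55.3 and 6311 CPM in KO_se: KO_se replicate 3 was near the challenged libraries and the other sensitized ones were far below (log2 fold change 2.92 ± 1.41 (SE), adjusted p = 0.229). Bpifa2, a parotid secretory protein, had 19936, 43625 and 7995 CPM in KO_DTH, against 26061, 15924 and 31456 CPM in KO_se and overlapped (log2 fold change -0.04 ± 0.45 (SE), adjusted p = 0.974). Prol1 had 1.85, 2579.8 and 136 CPM in KO_DTH, against 4.02, 1.87 and 6.41 CPM in KO_se, where KO_DTH replicate 2 was far above all other libraries (log2 fold change 7.79 ± 1.95 (SE), adjusted p = 0.0249). Beside the rises of Kdr, Ltbr, Xbp1 and Mt1, the share of salivary RNA was 7.24% in KO_DTH and 4.14% in KO_se, and its part in them was not tested beyond the fits named. Kdr, Ltbr and Prol1 lost the call with the 2 salivary terms, and Prol1 in the fit to the 6 knockout libraries alone, with a replicate block, with the sex of the library as a term, without the most salivary library of each group and without KO_se replicate 1, KO_se replicate 2, KO_se replicate 3 or KO_DTH replicate 2 (adjusted p up to 0.105).

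The largest rises and falls by fitted fold included scarce transcripts. F7, coagulation factor VII, had 0.936, 0.809 and 0.675 CPM in KO_DTH, against 0, 0 and 0 CPM in KO_se, at least 40.1-fold higher against a floor of 3 counts over the group. Il22ra2, the secreted receptor that neutralizes IL-22 and is made by dendritic cells, had 0.259, 0.0735 and 1.08 CPM in KO_DTH, against 7.47, 7.17 and 5.13 CPM in KO_se (log2 fold change -3.81 ± 0.80 (SE), adjusted p = 0.00983). Syndig1l, a membrane protein gene, had 0.139, 0.0980 and 0.313 CPM in KO_DTH, against 2.54, 1.87 and 1.77 CPM in KO_se (log2 fold change -3.48 ± 0.52 (SE), adjusted p = 0.0012). In both falls the challenged libraries lay below all the sensitized ones. F7, Il22ra2 and Syndig1l lost the call with the 2 salivary terms, and Il22ra2 without KO_DTH replicate 1 (adjusted p = 0.0507).

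The challenge effect in wild-type nodes, which shares no library with that in the knockout, was set beside it. The interaction was called for 422 of 20034 genes (2.11%), 334 with a more positive challenge effect in the knockout and 88 with a more negative one, and 65 of them were among the 1938 genes called in knockout nodes. With the 2 salivary terms it was called for 0 genes in edgeR's test, where 885 had an unadjusted p under 0.05, and DESeq2's Wald test, run without those terms, called it for 1240 genes. Without KO_se replicate 1 or KO_se replicate 2 the count was 0, without KO_DTH replicate 1 it was 3, without KO_DTH replicate 2 it was 47, and without KO_DTH replicate 3 it was 830. In wild-type nodes salivary genes stood at 2.28 ± 0.590% of counts in WT_DTH and 9.61 ± 3.67% in WT_se (SD, n = 3 each), and mitochondrially encoded genes at 5.13 ± 0.733% in WT_DTH and 17 ± 2.83% in WT_se, both lower after challenge, and the part of these shares in the interaction was not tested beyond the salivary terms. Of 28 tested salivary genes 15 were called for the interaction, all with a more positive effect in the knockout, against 2.11% of all genes. In wild-type nodes 23 of the 28 fell, against 8.97% of all genes there, with a median of -2.47. For the antiviral genes the median was 2.77 in the knockout and 1.85 in the wild type, with 0 members called different in edgeR's test (4 at an unadjusted p under 0.05, and 1 by DESeq2), and for monocyte genes 1.6 in the knockout and 2.05 in the wild type, with 2. Of these 2 monocyte genes only Plac8 had a more negative challenge effect in the knockout. Plac8 rose by 1.51 log2 units in the knockout and 2.25 in the wild type (difference -0.74 ± 0.17 (SE), adjusted p = 0.0438). Iglc2 had log2 fold changes of -1.01 in the knockout and 0.16 in the wild type (difference -1.16 ± 0.19 (SE), adjusted p = 0.0237). Xbp1 and Mt1 differed the other way, by 1.13 ± 0.19 (SE), adjusted p = 0.0237 and 2.34 ± 0.34 (SE), adjusted p = 0.0237. Each of these 4 differences missed the threshold without some single library of the knockout groups: Plac8 without KO_se replicate 1, KO_se replicate 2, KO_DTH replicate 1 or KO_DTH replicate 2 (adjusted p up to 0.105), Iglc2 without KO_se replicate 1, KO_se replicate 2 or KO_DTH replicate 1 (adjusted p up to 0.0719), Xbp1 without KO_se replicate 1, KO_se replicate 2, KO_DTH replicate 1 or KO_DTH replicate 2 (adjusted p up to 0.0719), and Mt1 without KO_se replicate 1, KO_se replicate 2 or KO_DTH replicate 1 (adjusted p up to 0.0719).

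**Figure D4:**
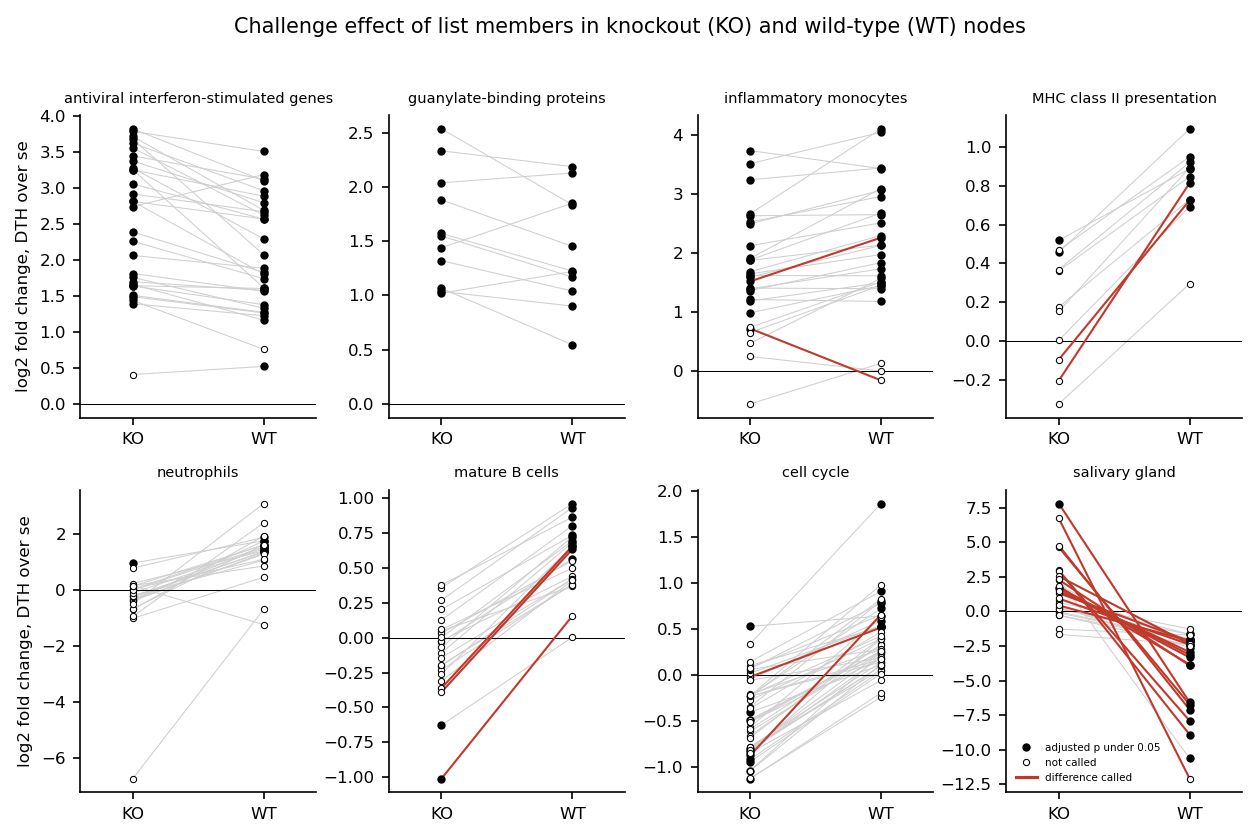
Log2 fold change of the members of 8 gene lists, challenged over sensitized, in knockout (KO, left) and wild-type (WT, right) nodes, 1 line per gene. Filled points passed the adjusted threshold of 0.05, and red lines mark genes whose difference between the genotypes passed its own test. Antiviral genes rise on both sides, class II and B cell genes have medians near 0 in the knockout and above it in the wild type, and salivary genes lie mostly above 0 in the knockout, with a median of 1.4, and below it in the wild type.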

How the data were processed

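RNA-seq of mandibular lymph nodes was used as 1 table of estimated counts per gene, deposited by the authors for 12 libraries. Per the labels' protocols, RNA was extracted with RNeasy Mini kits and 1 µg of total RNA entered NEBNext Ultra II Directional libraries. Per the submitters' processing notes, fastp 0.23.2, HISAT2 2.2.1, GRCm39 and StringTie 2.2.1 were used, while the gene annotation was not given in the sources used here. All deposited count values were whole, so none was rounded. A GENCODE table on GRCm38 gave symbols for 51948 of the 56941 IDs and no coordinates, and 0 columns of the table were left unused.

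Genes were filtered with edgeR's filterByExpr (minimum count 10), scaled by TMM and tested with edgeR's quasi-likelihood test (edgeR 4.0.16, limma 3.58.1, R 4.3.3) in 1 fit of all 12 libraries with 8 residual degrees of freedom. KO_DTH was set against KO_se, and the interaction is the challenge effect in the knockout minus that in the wild type. p-values are two-sided and Benjamini-Hochberg adjusted over all 20034 genes, with a threshold of 0.05, and SE is the size of the log2 fold change divided by the square root of F. The fit was also run on counts simulated from its own gene means and dispersions. These held no salivary, mitochondrial or sex differences between libraries, so that run cannot show how such differences affect the calls. Alternatives were DESeq2's size factors and Wald test (DESeq2 1.42.0), other count filters, the 6 knockout libraries alone, a block by replicate number, the sex of the library, 2 principal components of salivary genes, and libraries left out. Python 3.11.15 with pandas 2.3.3, scipy 1.17.1 and matplotlib 3.10.9 made the summaries and figures.

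The comparison and the gene lists were chosen with earlier results of these data known. Named genes were a fixed set, the 12 largest rises and falls without overlap (a mean of 20 counts or more), the 12 of smallest p, the 4 of smallest p in each list (2 where none was called) and the leading interactions. Further genes of the same families were chosen after their values were seen. Promoter windows come from RefSeq on GRCm38.p6. Mir451a was not analysed here, and some named genes are not reported here.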

Additional observations from a re-analysis of the deposited data

Results flagged for a closer look

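For 22 of the named genes the challenge effect differed between knockout and wild-type nodes in a test of the difference itself (edgeR's quasi-likelihood test over 12 libraries, adjusted p under 0.05). Values are the knockout log2 fold change minus the wild-type one, challenged over sensitized, and adjusted p ranged from 0.0237 to 0.0476. Each of the differences lost the call without at least 2 of the 6 knockout libraries in turn, and all of them with the 2 salivary terms, where no gene was called. Salivary genes took 7.24% of counts in KO_DTH and 4.14% in KO_se, against 2.28% in WT_DTH and 9.61% in WT_se, and their part in these differences was not tested beyond that fit.

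Among immune genes, Il17a differed by -1.99 (adjusted p = 0.0476), with log2 fold changes of -1.51 in the knockout and 0.48 in the wild type, a call lost without each of the 6 knockout libraries in turn. The myeloid and leukocyte genes Plac8, Ly86 and Lpxn differed by -0.74, -0.90 and -0.86 (knockout log2 fold changes 1.51, 0.27 and -0.15, wild type 2.25, 1.17 and 0.71). Of B lineage genes, Iglc1, Iglc2 and Tnfrsf13b differed by -1.45, -1.17 and -0.73 (knockout log2 fold changes -1.07, -1.01 and -0.81, wild type 0.38, 0.16 and -0.09), and reads may be split between Iglc1 and Iglc2, near-identical copies. Xbp1, a factor of secretory cells, Kpna2, a nuclear importin, and Nmral1, a redox sensor, differed by 1.13, -1.05 and -1.40 (knockout log2 fold changes 0.66, -0.54 and 0.22, wild type -0.47, 0.51 and 1.62).

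Of the metallothioneins, Mt1 and Mt2 differed by 2.34 and 2.98 (knockout log2 fold changes 1.33 and 1.88, wild type -1.01 and -1.11). The epithelial and cytoskeletal genes Prol1, Krt18, Ccl28, Acta2, Parva and Wtip differed by 14.36, 4.83, 5.44, 3.99, 3.54 and 4.01 (knockout log2 fold changes 7.79, 1.68, 1.84, 0.89, 1.08 and 1.25, wild type -6.58, -3.15, -3.60, -3.10, -2.46 and -2.75). Of the transcripts with no counts in at least 2 libraries of a knockout group, whose fitted values depend on the prior count and are no bounds, Sox6, Gpx2, Vstm4 and Myl12b differed by 11.79, 8.27, 12.86 and -20.39 (knockout log2 fold changes 4.82, 4.65, 4.47 and -11.16, wild type -6.97, -3.62, -8.39 and 9.23). The Myl12b value is that of a single gene ID with no count in any KO_DTH library, and it may not stand for the whole gene.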

How the results depend on the processing

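Over the 15 alternatives, 98 of the 211 named genes called kept the call in each, and 2 turned direction, both with 2 principal components of the salivary genes as terms: Cpt1b at 0.042 and Prol1 at -0.43 on the log2 scale. The antiviral, guanylate-binding, immunity-related GTPase, MHC class I and monocyte counts stayed within 1.5 times of those reported in every alternative.

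With the salivary terms, 445 genes were called by challenge (382 higher, 63 lower) and 0 for the interaction, and the lists held 1 macrophage rise and falls of 1 cell cycle, 1 plasma cell and 0 mast cell genes. Without the most salivary library of each group these counts were 742, 573, 169 and 264, then 2, 1 and 3 for macrophages, cell cycle and mast cells. DESeq2's Wald test called 1262 genes lower, 1240 interactions, 16 cell cycle falls and 8 plasma cell falls. With no filter on low counts there were 267 interactions, 4 macrophage rises and 4 cell cycle falls. In the fit to the 6 knockout libraries 18 cell cycle and 3 plasma cell genes fell, and with the sex of the library as a term 15 cell cycle genes. The cause of these moves was not tested.

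Leaving out each knockout library gave 1039 to 1772 calls, 697 to 1041 higher and 326 to 731 lower, 0 to 830 interactions, 3 to 7 macrophage rises, 2 to 5 cell cycle falls and 3 to 6 mast cell falls. Fewer libraries also leave fewer degrees of freedom.

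With a replicate block the challenge was called for 1729 genes and the interaction for 128. Libraries of the same number did not deviate together (correlations -0.0146, -0.0984 and -0.0974), and no library correlated best with its own number, so the numbers were not taken as pairs.

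With 3 libraries a group, exact permutation tests of shares cannot go below 0.1. Challenge and day of harvest cannot be told apart.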

Other observations

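Of 22 immediate early genes 3 rose in KO_DTH and none fell, with a median log2 fold change of 0.17. Immediate early gene rises numbered 0 with the 2 salivary terms, 5 in DESeq2's Wald test and 5 in the fit to the 6 knockout libraries alone. Zfp36, which speeds the decay of cytokine mRNAs, had 505, 397 and 403 CPM in KO_DTH, against 256, 246 and 277 CPM in KO_se. The groups did not overlap (log2 fold change 0.74 ± 0.14 (SE), adjusted p = 0.00545). Fos, a subunit of the transcription factor AP-1, had 318, 317 and 289 CPM in KO_DTH, against 219, 243 and 308 CPM in KO_se, with overlap (log2 fold change 0.26 ± 0.20 (SE), adjusted p = 0.471). Of 18 genes of the lymphotoxin and TNF family 2 rose, Ltbr and Tnfrsf1a, the main TNF receptor, which had 64.9, 52.1 and 51.0 CPM in KO_DTH, against 30.9, 29.4 and 33.3 CPM in KO_se (log2 fold change 0.84 ± 0.15 (SE), adjusted p = 0.00436). TNF family rises numbered 0 with the 2 salivary terms. Tnfrsf1a and Zfp36 lost the call with the 2 salivary terms.

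Of 21 chemokine receptors 2 rose and 2 fell. Chemokine receptor rises numbered 1 in both salivary alternatives. Chemokine receptor falls numbered 0 in both salivary alternatives, 1 without KO_se replicates 2 or 3 and 4 in DESeq2's Wald test. Ccr1, a receptor of monocytes and neutrophils, rose, at 20.5, 15.5 and 15.6 CPM in KO_DTH, against 7.20, 6.26 and 5.73 CPM in KO_se (log2 fold change 1.43 ± 0.27 (SE), adjusted p = 0.00597), a call lost in both fits that address salivary RNA. None of the 11 erythroid genes, the lineage in which miR-451a is abundant, passed edgeR's test, while 7 had an unadjusted p under 0.05 and DESeq2 called 1. Alas2, the first enzyme of haem synthesis in red cell precursors, had 15.2, 50.9 and 18.2 CPM in KO_DTH, against 58.1, 151 and 31.4 CPM in KO_se, with overlapping groups (log2 fold change -1.51 ± 0.54 (SE), adjusted p = 0.0978).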
